A study of Mus musculus with 6 samples.

Results

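The genes described are 38 genes of the skeletal muscle sarcomere and of muscle energy metabolism, taken by symbol from a fixed list, of 16407 genes tested. A member was measured by the probes whose RefSeq accession maps to its symbol. All 38 had at least 1 probe and entered the test, with a signal well above background in each of the 6 samples. They comprise 14 fast fibre genes, 4 slow fibre genes, 4 genes of development and regeneration, 7 sarcomere genes shared by all fibres, 2 genes of excitation-contraction coupling and 7 metabolic genes.

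Skin wounds of male C57/BL6 mice were compared between wild type (WT) and FoxO1 +/- animals, which carry 1 functional copy of the forkhead transcription factor gene Foxo1, to ask what that loss does to gene expression at the wound. Each mouse received 4 full-thickness wounds in the back skin with a 4 mm punch. Tissue was taken on day 3 with a 6 mm punch, so that each piece held the wound and a rim of skin around it. RNA (200 ng) from each sample was labelled with Cy3 and put on 1 Agilent array, with 3 arrays per genotype. The descriptions do not say which cells carry or lose the allele beyond the genotype, give the animals' age, or say how the wounds of a mouse were pooled, so the p-values below speak only of the spread among these 6 arrays, which may be partly technical.

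Mouse back skin carries a thin sheet of striated muscle, the panniculus carnosus, beneath the dermis and its fat. A sarcomere is built from myosin thick filaments and actin thin filaments held by Z-discs, and calcium released through the ryanodine receptor starts contraction by way of the troponin complex. Fibres are told apart by the myosin heavy chain they make: Myh4, Myh1 and Myh2 mark fast fibres, Myh7 slow fibres, and Myh3 and Myh8 the fibres of embryos, newborns and regenerating muscle. Injured muscle is rebuilt from satellite cells, whose descendants switch on Myod1 and then Myog before they fuse.

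The promoters of 4 members are shown as examples. Ckm and Acta1 were high and low on the same arrays as most members, and Myh4 and Myh7 departed furthest from the level that most members shared. Each promoter is the stretch of 250 bases before a RefSeq transcription start in the build GRCm38.p6, written 5′ to 3′ on the gene's strand. Myh7 has 2 listed starts, of which 1 is shown. Capitals mark matches, on either strand, to the TATA box letters TATAAA and to CAGCTG (an E-box that MyoD and myogenin can bind). They also mark, on either strand, CATTCC (the MCAT element, bound by TEAD factors) and the CArG box of serum response factor. The last motif was a loose pattern for the palindromic MEF2 site, with any base allowed at its 4 middle positions. A match to this pattern need not be a MEF2 site.
Ckm promoter, chr7:19410844-19411093, plus strand: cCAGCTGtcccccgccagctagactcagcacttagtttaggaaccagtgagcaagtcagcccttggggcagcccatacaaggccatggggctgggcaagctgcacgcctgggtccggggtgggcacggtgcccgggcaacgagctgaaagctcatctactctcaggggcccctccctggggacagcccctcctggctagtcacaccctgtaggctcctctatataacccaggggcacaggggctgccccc
Acta1 promoter, chr8:123894776-123895025, minus strand: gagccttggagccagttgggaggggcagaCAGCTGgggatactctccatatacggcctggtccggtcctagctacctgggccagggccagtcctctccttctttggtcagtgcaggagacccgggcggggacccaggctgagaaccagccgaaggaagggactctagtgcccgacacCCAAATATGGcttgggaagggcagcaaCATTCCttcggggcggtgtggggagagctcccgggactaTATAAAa
Myh4 promoter, chr11:67237562-67237811, plus strand: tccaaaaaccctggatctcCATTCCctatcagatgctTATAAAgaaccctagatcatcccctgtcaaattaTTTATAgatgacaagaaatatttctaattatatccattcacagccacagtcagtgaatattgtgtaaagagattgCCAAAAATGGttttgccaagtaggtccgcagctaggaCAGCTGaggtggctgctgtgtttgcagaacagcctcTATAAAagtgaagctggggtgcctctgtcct
Myh7 promoter, chr14:54994550-54994799, minus strand: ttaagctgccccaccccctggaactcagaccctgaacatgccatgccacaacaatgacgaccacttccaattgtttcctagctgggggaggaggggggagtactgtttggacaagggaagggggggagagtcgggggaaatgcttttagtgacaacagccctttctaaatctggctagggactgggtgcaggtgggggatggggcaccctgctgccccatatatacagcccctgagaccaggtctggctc

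A promoter was listed for 28 of the 38 members, 34 promoters in all, in a table of 32851. CAGCTG was found in 41.2% of the members' promoters and in 13.0% of all promoters of that length. The shares were 26.5% and 12.6% for CATTCC, 20.6% and 12.4% for TATAAA, and 11.8% and 1.47% for the CArG box. For the loose MEF2 pattern they were 5.88% and 3.20%, and which of its matches are MEF2 sites was not tested. Among the members, the CArG box share rests on 4 promoters of 3 genes. The share of the loose MEF2 pattern rests on 2 promoters of 2 genes. Of the 4 shown, Myh4 and Acta1 held a match to 4 of the 5 motifs, Ckm held the E-box letters only, and the Myh7 stretch held none. The stretch before the other listed Myh7 start, which is not shown, held CATTCC. These matches describe letters, not binding, and no link between them and the levels below was tested.

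The muscle genes varied from array to array far more than most genes, and they did so within both genotypes. Levels below are log2 signals relative to the 75th percentile of each array, and a deviation is a gene's level on an array minus its own mean over the 6 arrays, so that no probe is set against another. The mean deviation of the 38 members was 0.09, -0.75 and 0.69 on WT arrays 1, 2 and 3 and 0.54, 0.24 and -0.82 on FoxO1 +/- arrays 1, 2 and 3. WT 3 and FoxO1 +/- 1 were high, WT 2 and FoxO1 +/- 3 were low, and each genotype held a high and a low array. WT 3 was 2.72-fold above WT 2, and FoxO1 +/- 1 was 2.57-fold above FoxO1 +/- 3.

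The pattern ran through nearly the whole set. For 35 of 38 members the 2 lowest arrays were WT 2 and FoxO1 +/- 3, which held for 10.1% of all genes tested. For 29 of 38 the 2 highest were WT 3 and FoxO1 +/- 1, against 4.77% of all genes. The pooled standard deviation (SD) within genotypes had a median of 0.75 over the members and 0.14 over all genes. Of the 38 members, 36 exceeded 0.52, the 95th percentile of all genes, and the exceptions were Myog and Myod1. The ratio of the highest to the lowest array had a median of 3.03 over the members, from 1.67 for Myog to 40.0 for Myh7. In tissue pieces such as these, fewer muscle cells and less of these RNAs per cell cannot be told apart.

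**Figure D1:**
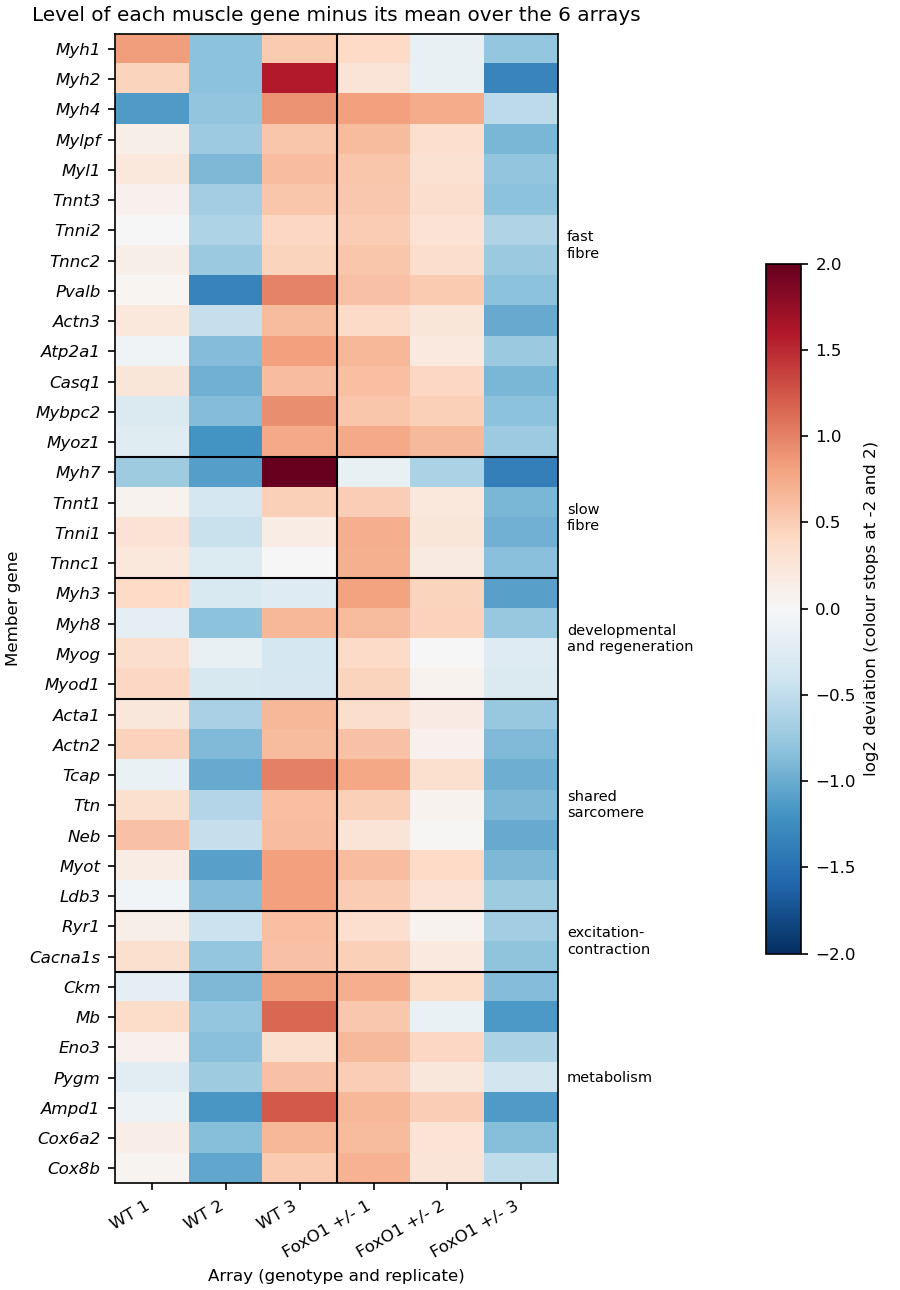
Each row is 1 of the 38 muscle genes and each column 1 array, coloured by the log2 deviation of the gene from its mean over the 6 arrays, with genes grouped by role. WT 2 and FoxO1 +/- 3 are low and WT 3 and FoxO1 +/- 1 high for most rows, and Myh7 stands out on WT 3.

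No muscle gene differed between the genotypes beyond the spread between arrays. With limma and Benjamini-Hochberg adjustment over all genes, 0 of 38 members passed an adjusted p of 0.05, against 0.00609% of all genes tested, which is 1 gene, the vomeronasal receptor gene Vmn1r227. At an unadjusted p of 0.05 it was again 0 of 38, against 6.25% of all genes, 3.43% higher and 2.83% lower in FoxO1 +/-. In 0 of 38 did the genotypes separate without overlap, against 11.5% of all genes, 6.9% higher and 4.57% lower. Unadjusted p-values of the members ran from 0.284 to 0.981, and adjusted p-values from 0.931 upward. The difference, FoxO1 +/- minus WT, had a median of 0.05 over the members and 0.01 over all genes. It was above 0 for 26 members and below 0 for 12, where 53.7% of all genes were above 0. For all 38 members it was smaller than the gene's own SD within genotypes.

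That median rested on which arrays were counted. It was -0.35 without WT 2, the low WT array, and 0.47 without FoxO1 +/- 3, the low FoxO1 +/- array. It was 0.34 without WT 3 and -0.25 without FoxO1 +/- 1. By position on the slide, row 1 had all 3 WT arrays but only FoxO1 +/- 1. Within that row the median was 0.61, resting on that 1 array against 3. FoxO1 +/- 3 also had the weakest signal, with 64.3% of spots well above background against 70.1% to 71.9% on the other 5 arrays. WT 2, the other low array, had 71.9%.

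**Figure D2:**
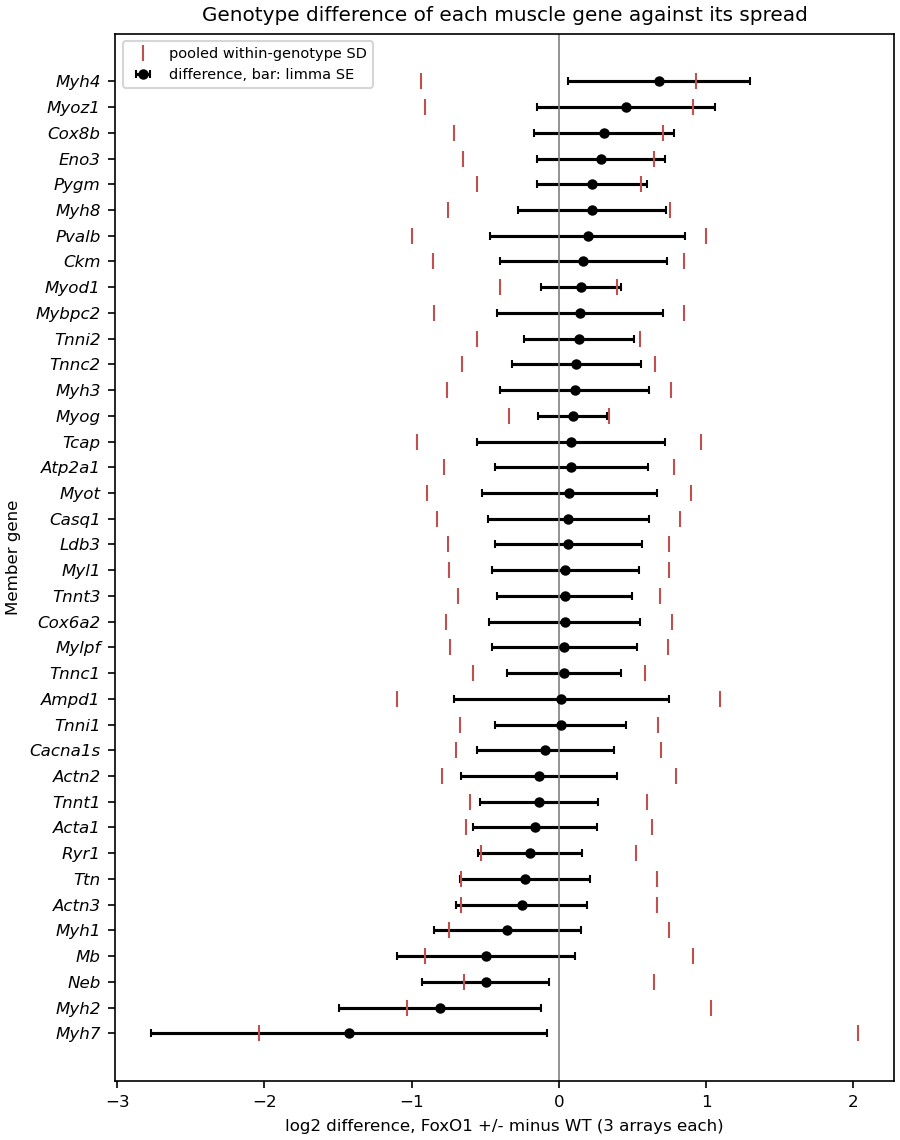
Each point is the log2 difference, FoxO1 +/- minus WT, of 1 muscle gene, with the limma standard error as the bar and the gene's pooled SD within genotypes as ticks on both sides of 0. All 38 points lie inside their ticks, from -1.43 for Myh7 to 0.68 for Myh4.

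Foxo1, the targeted gene, was lower in value on all 3 FoxO1 +/- arrays, though not past the adjusted threshold. Its levels of 2.04, 1.81 and 2.32 in WT did not overlap with 1.54, 1.69 and 1.49 in FoxO1 +/-, a difference of -0.48 (standard error, SE, 0.14, limma adjusted p = 0.650).

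The adult fast myosin heavy chains, motors of the fast fibre, did not move alike. Myh4, the chain of the fastest fibres, was at 5.31, 5.65 and 7.33 in WT and at 7.25, 7.18 and 5.91 in FoxO1 +/-. It was high on WT 3, FoxO1 +/- 1 and FoxO1 +/- 2 and lowest on WT 1, where every other member was higher than on WT 2 and on FoxO1 +/- 3. Its means by genotype were 6.10 ± 1.08 and 6.78 ± 0.75 (SD, n = 3 each), a difference of 0.68 (SE 0.62, limma adjusted p = 0.937).

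Myh1, a fast chain of the intermediate fibre class, was at 6.13, 4.47 and 5.81 in WT and at 5.69, 5.15 and 4.51 in FoxO1 +/-. It was the 1 member highest on WT 1, the array on which Myh4 was lowest. The difference of -0.35 (SE 0.50, limma adjusted p = 0.981) was smaller than the SD of 0.88 among the WT arrays. Relative to the members' median deviation on WT 1, Myh1 stood 0.72 above and Myh4 1.24 below.

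Myh2, the fast chain of oxidative fibres, was at 4.30, 3.04 and 5.45 in WT and at 4.12, 3.71 and 2.54 in FoxO1 +/-. Its ratio of highest to lowest array, 7.54, came after that of Myh7 among the 38. WT 3 was the highest, 0.98 above the shared level there, and the groups overlapped. The means were 4.26 ± 1.21 and 3.46 ± 0.82 (SD, n = 3 each), with a difference of -0.81 (SE 0.69, limma adjusted p = 0.931).

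The Myh2, Myh1, Myh4, Myh8 and Myh3 genes lie together on chromosome 11 and are close in sequence. The files hold no probe sequences, so how far a probe for 1 of them also reads another was not tested, and their separate values are uncertain to that extent.

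Other fast fibre genes kept close to the shared level. Tnnt3, the fast troponin T that ties the troponin complex to tropomyosin, was at 5.75, 4.98 and 6.22 in WT and at 6.21, 6.02 and 4.84 in FoxO1 +/-. Its difference was 0.04 (SE 0.46, limma adjusted p = 0.998). Tnni2 and Tnnc2, the fast inhibitory and calcium-binding troponins, had differences of 0.14 (SE 0.37) and 0.12 (SE 0.44). They varied less than most, with a highest to lowest ratio of 2.19 for Tnni2 and 2.47 for Tnnc2.

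Myoz1, a Z-disc protein of fast fibres that binds calcineurin, was at 1.81, 0.85 and 2.82 in WT and at 2.82, 2.71 and 1.33 in FoxO1 +/-. WT 2 and FoxO1 +/- 3 were low and the genotypes overlapped. The difference was 0.46 (SE 0.60, limma adjusted p = 0.976).

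Pvalb, the calcium buffer parvalbumin of fast fibres, was at 4.58, 3.21 and 5.54 in WT and at 5.13, 5.07 and 3.73 in FoxO1 +/-, a 5.04-fold range. WT 2 was lowest, 0.53 below the shared level on that array. Atp2a1, the calcium pump that refills the store, and Casq1, the calcium-binding protein within it, ranged 3.22-fold and 2.98-fold, with differences of 0.08 (SE 0.52) and 0.07 (SE 0.55). Mybpc2, a fast myosin-binding protein, ranged 3.48-fold, and the myosin light chains Myl1 and Mylpf 2.84-fold and 2.92-fold. Actn3, the fast Z-disc actinin, was at -0.25 (SE 0.45). Over the 14 fast members the median difference was 0.07, with 11 values above 0, 3 below 0 and 0 past an unadjusted p of 0.05.

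The slow fibre genes split into Myh7 and the rest. Myh7, the slow myosin heavy chain, which the heart also expresses, was at -1.63, -2.03 and 3.03 in WT and at -1.06, -1.55 and -2.29 in FoxO1 +/-. WT 3 alone was high, 17.1-fold above the next array, and the other 5 arrays lay within 1.23 of each other. The WT SD was 2.81 (n = 3) against 0.62 (n = 3) in FoxO1 +/-. The difference of -1.43 (SE 1.35, limma adjusted p = 0.942) turned to 0.19 without WT 3.

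The other slow members did not share that excess. Tnnt1, the slow troponin T, was at 4.15, 3.72 and 4.55 in WT and at 4.57, 4.28 and 3.16 in FoxO1 +/-, a difference of -0.13 (SE 0.40, limma adjusted p = 0.995). Tnni1, the slow troponin I, was at 1.60, 0.87 and 1.46 in WT and at 2.04, 1.56 and 0.36 in FoxO1 +/-. Tnnc1, the troponin C of slow and heart muscle, was at 0.05, -0.44 and -0.15 in WT and at 0.55, 0.01 and -0.999 in FoxO1 +/-. All 3 were highest on FoxO1 +/- 1 and lowest on FoxO1 +/- 3. On WT 3, where Myh7 stood 3.34 above the shared level, Tnnt1, Tnni1 and Tnnc1 stood 0.14, 0.47 and 0.60 below it.

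**Figure D3:**
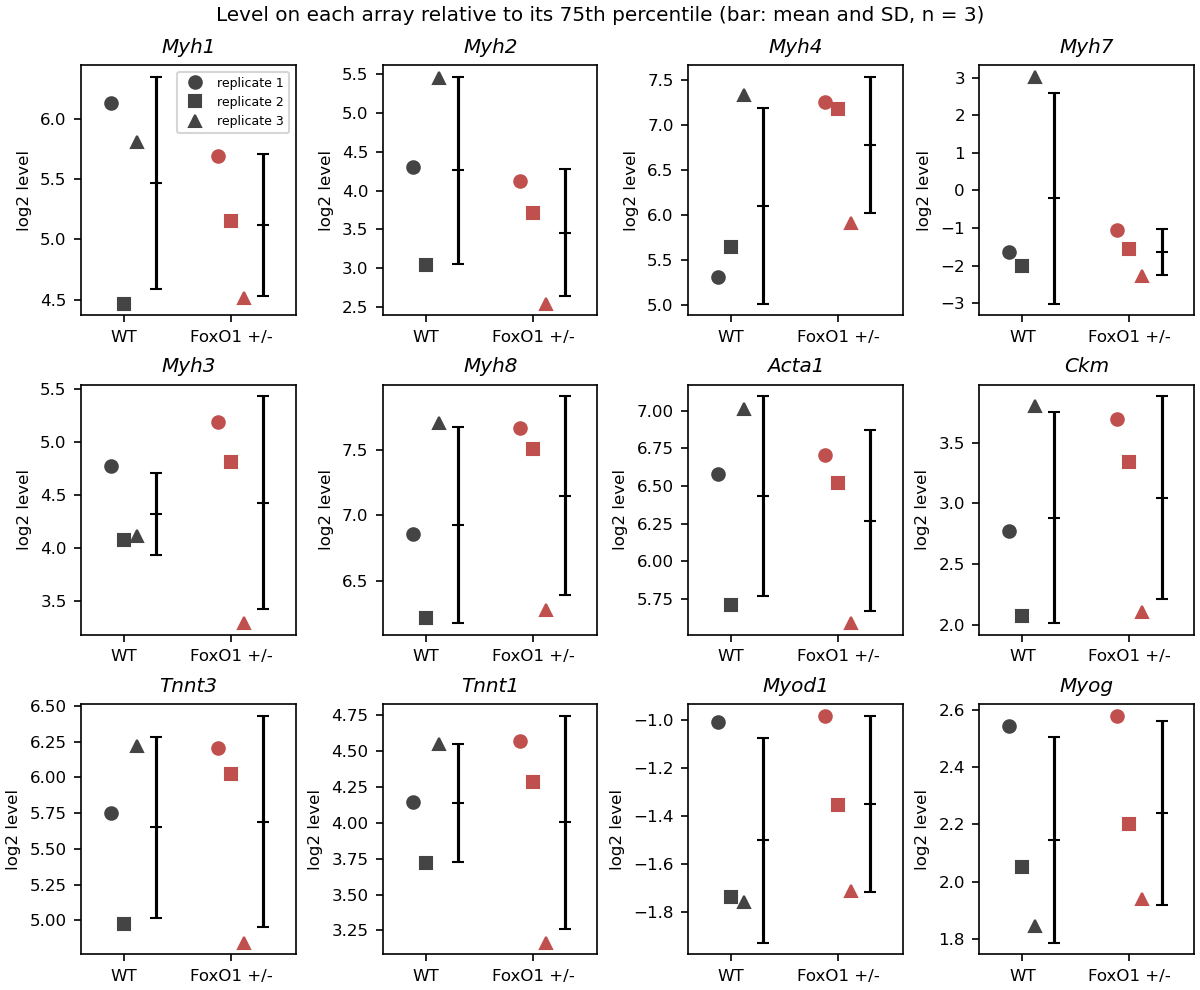
Each panel is 1 marker gene, with its log2 level relative to the 75th percentile on each of the 3 WT and 3 FoxO1 +/- arrays as points and the group mean with its SD (n = 3) as a bar. The genotypes overlap in every panel, and the single high Myh7 point at 3.03 is WT 3.

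Fast and slow members were then set against each other within each array. The mean deviation of the 14 fast members minus that of the 4 slow members was 0.07, -0.30 and -0.41 on WT 1, 2 and 3 and 0.11, 0.33 and 0.19 on FoxO1 +/- 1, 2 and 3. On this measure the means of the genotypes were 0.42 apart. Without Myh7, an alternative chosen after its values were seen, the array values were -0.15, -0.49 and 0.53 in WT and -0.09, 0.12 and 0.08 in FoxO1 +/-, and the means were 0.07 apart. Without WT 3 and with Myh7 kept, the means were 0.32 apart. No test was made of this measure, since the members were chosen with results known.

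A search for other genes at least 2 log2 units higher on WT 3 than on every other array, also made after the values were seen, found 6 genes. Of these, 4 were slow muscle genes: Myh7, Myl2, Myl3 and Myh7b. Myl2, the regulatory light chain of slow and ventricular myosin, was at -3.27, -2.80 and 2.23 in WT and at -2.39, -2.69 and -2.69 in FoxO1 +/-, with WT 3 24.5-fold above the next array. Myl3, the matching essential light chain, was at -2.25, -2.34 and 1.60 in WT and at -1.96, -1.92 and -2.29 in FoxO1 +/-. Myh7b, a myosin gene related to Myh7, was at -1.59 on WT 3 and between -5.31 and -4.78 on the other 5 arrays. Myh7, Myl2 and Myl3 are also genes of the heart ventricle, so heart genes are given below beside the other cell types.

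Genes of development and regeneration followed the shared level less closely. Myh8, the perinatal chain, was at 6.85, 6.21 and 7.70 in WT and at 7.67, 7.50 and 6.28 in FoxO1 +/-, and so moved with the adult genes. Its difference was 0.23 (SE 0.50, limma adjusted p = 0.992), and its 2 kept probes gave differences 0.30 apart, the widest gap between probes of a member.

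Myh3, the embryonic chain, was at 4.77, 4.08 and 4.12 in WT and at 5.18, 4.81 and 3.29 in FoxO1 +/-. FoxO1 +/- 1 was highest, FoxO1 +/- 3 lowest, and WT 3 was 0.87 below the members' median deviation on that array. The difference was 0.11 (SE 0.51, limma adjusted p = 0.997).

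Myod1, the factor that commits cells to muscle, was at -1.01, -1.74 and -1.76 in WT and at -0.98, -1.35 and -1.71 in FoxO1 +/-. Myog, which drives their differentiation, was at 2.54, 2.05 and 1.84 in WT and at 2.58, 2.20 and 1.94 in FoxO1 +/-. Both were high on WT 1 and FoxO1 +/- 1 and lowest on WT 3, the array on which most structural genes were highest. The means of Myod1 were -1.50 ± 0.43 and -1.35 ± 0.37 (SD, n = 3 each), with a difference of 0.15 (SE 0.27, limma adjusted p = 0.990). For Myog they were 2.15 ± 0.36 and 2.24 ± 0.32 (SD, n = 3 each), with a difference of 0.09 (SE 0.23, limma adjusted p = 0.994). The mean deviation of the 4 genes was 0.25, -0.40 and -0.07 in WT and 0.57, 0.25 and -0.60 in FoxO1 +/-. Within slide row 1 their median difference was 0.63, against 0.13 over all arrays, again with FoxO1 +/- 1 alone for its genotype.

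The shared sarcomere genes peaked on the same array: all 7 were highest on WT 3. Acta1, the skeletal actin of the thin filament, was at 6.58, 5.71 and 7.01 in WT and at 6.70, 6.52 and 5.59 in FoxO1 +/-. The means were 6.43 ± 0.66 and 6.27 ± 0.60 (SD, n = 3 each), a difference of -0.16 (SE 0.42, limma adjusted p = 0.995).

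Neb, which encodes nebulin, the giant protein along the thin filament, was at 3.55, 2.50 and 3.57 in WT and at 3.21, 2.98 and 1.95 in FoxO1 +/-. WT 1 and WT 3 were above all 3 FoxO1 +/- arrays and WT 2 was not. The difference was -0.50 (SE 0.43, limma adjusted p = 0.932), and it was 0.0024 within slide row 1. Ttn, which encodes titin, the spring of the sarcomere, was at -0.23 (SE 0.44) over 4 kept probes represented by the brightest.

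Tcap, the titin cap at the Z-disc, was at 5.001, 4.13 and 6.15 in WT and at 5.91, 5.46 and 4.16 in FoxO1 +/-, a 4.06-fold range with a difference of 0.08 (SE 0.64). Actn2, the Z-disc actinin, Myot, which encodes myotilin, and Ldb3, another Z-disc gene, ranged 2.88-fold, 3.75-fold and 3.21-fold and were all lowest on WT 2. The median difference of the 7 genes was -0.13, with 3 values above and 4 below 0.

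Excitation-contraction coupling was measured by Ryr1, the calcium release channel, and Cacna1s, the voltage sensor that opens it. Ryr1 was at 1.21, 0.65 and 1.69 in WT and at 1.42, 1.15 and 0.39 in FoxO1 +/-. Cacna1s was at 3.71, 2.63 and 3.98 in WT and at 3.87, 3.60 and 2.59 in FoxO1 +/-. The channel and its sensor were high and low on the same arrays, and their differences were -0.19 (SE 0.35) and -0.09 (SE 0.46).

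Among the metabolic genes, Ckm, the muscle creatine kinase that buffers ATP, was at 2.77, 2.07 and 3.80 in WT and at 3.70, 3.34 and 2.10 in FoxO1 +/-. The means were 2.88 ± 0.87 and 3.05 ± 0.84 (SD, n = 3 each), with a difference of 0.16 (SE 0.57, limma adjusted p = 0.995). Each genotype thus spanned nearly the whole range of Ckm.

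Mb, which encodes the oxygen store myoglobin of oxidative fibres, was at 3.64, 2.50 and 4.42 in WT and at 3.81, 3.13 and 2.12 in FoxO1 +/-. Like Myh2, it stood above the shared level on WT 3, by 0.53, and below it on FoxO1 +/- 2, by 0.40. The difference was -0.49 (SE 0.61, limma adjusted p = 0.966).

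Ampd1, the muscle AMP deaminase, was at -0.06, -1.13 and 1.26 in WT and at 0.69, 0.53 and -1.10 in FoxO1 +/-, a 5.25-fold range with a difference of 0.02 (SE 0.73). The glycolytic genes Eno3, the muscle enolase, and Pygm, the muscle glycogen phosphorylase, were at 0.29 (SE 0.43) and 0.23 (SE 0.37). Cox6a2 and Cox8b, muscle subunits of cytochrome c oxidase, were at 0.04 (SE 0.51) and 0.31 (SE 0.47). The median of the 7 metabolic genes was 0.16, with Mb the 1 value below 0.

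Muscle genes outside the set were read from lists of further fast, slow, sarcomere and triad, and metabolic genes. Of 66 listed genes 65 were tested, and Smpx had no probe with its symbol. WT 2 and FoxO1 +/- 3 were the 2 lowest arrays for 55 of the 65. The median difference was -0.02, with 30 values above and 35 below 0. None of the 65 passed an adjusted p of 0.05, and 1 passed an unadjusted p of 0.05, against 6.25% of all genes. It was Pfkfb1, an enzyme that sets the level of a glycolytic activator in liver and muscle, at -0.19, -0.37 and -0.20 in WT and 0.12, 0.07 and 0.23 in FoxO1 +/-. The difference was 0.40 (SE 0.09, limma adjusted p = 0.442). Of the 65, only Pfkfb1 and Gpd1 separated without overlap, against 11.5% of all genes. Gpd1, the glycerol-3-phosphate dehydrogenase of muscle and fat, was at 4.14, 3.29 and 4.25 in WT and at 4.32, 4.72 and 4.53 in FoxO1 +/-. Its difference was 0.63 (SE 0.27, limma adjusted p = 0.820), and unlike most muscle genes it was not low on FoxO1 +/- 3.

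By list, median differences were 0.19 for 11 further fast genes, -0.27 for 11 further slow genes, -0.05 for 29 sarcomere and triad genes and 0.14 for 14 metabolic genes. Of the 11 slow genes, 9 were highest on WT 3. So were 23 of the 30 members that are neither slow fibre nor development and regeneration genes. Satellite cell and myoblast genes had a median difference of 0.01 over 15 genes tested of 18, and Myf5, Calcr and Chodl did not pass the filter on dim probes. Their mean deviation was 0.31, -0.17 and -0.10 in WT and 0.32, 0.15 and -0.51 in FoxO1 +/-, high on WT 1 and FoxO1 +/- 1 as for Myod1 and Myog. None of the 15 had an unadjusted p under 0.05, against 6.25% of all genes, and 1 of 15, Pax3, separated, at -0.29 (SE 0.13), against 11.5% of all genes.

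The 10 genes outside the set whose levels most resembled the members' mean deviation had Pearson correlations of 0.992 to 0.998 over the 6 arrays, given as a description of arrays that share slide and scaling. They were Trdn, Tpm1, Tmem38a, Hjv, Speg, Cacna2d1, Cmya5, Tmem225, Pdlim5 and Yipf7. Trdn encodes triadin, which anchors calsequestrin to the release channel, and Tpm1 a tropomyosin of the thin filament. Trdn was at 1.28, 0.32 and 1.90 in WT and at 1.76, 1.52 and 0.28 in FoxO1 +/-. Both were in the further lists, and the other 8 were in none.

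Markers of other cells in the punch were read in the same way. WT 2 and FoxO1 +/- 3 were the 2 lowest arrays for 0 of 8 heart genes, 0 of 12 endothelial genes and 0 of 12 white adipocyte genes, against 10.1% of all genes. The counts were 1 of 10 for nerve and Schwann cell genes, 1 of 12 for hair follicle genes, 1 of 11 for keratinocyte genes and 2 of 11 for macrophage genes. They were 2 of 9 for brown adipocyte genes, which were Cpt1b and Ppargc1a, and 2 of 9 for smooth muscle genes, which were Hspb6 and Myh11. Smooth muscle genes had their highest mean deviation on WT 3, at 0.22, and their lowest on WT 2, at -0.22. These means include Hspb6, at 3.11, 2.12 and 3.89 in WT and at 3.42, 3.21 and 2.30 in FoxO1 +/-. Hspb6 itself was high and low on the same arrays as most members, and its part in the list means was not tested. Of the 9, 5 were highest on WT 3. On FoxO1 +/- 3 their mean deviation was -0.02, against -0.82 for the members. Of the heart genes, Myh6, the atrial and adult mouse ventricular myosin, was at -4.88, -4.72 and -4.78 in WT and at -4.88, -3.82 and -3.82 in FoxO1 +/-, so it was not raised on WT 3. Tnni3, the heart troponin I, was at -4.27 on WT 3, within its WT range of -4.28 to -4.02. Myl7 and Nppa, atrial genes, were at -4.51 and -4.00 there, against -4.35 and -4.00 on WT 1. These heart genes all had low signals, so small gaps between arrays carry little weight. Whether heart RNA had a part in the WT 3 values was not tested.

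White adipocyte genes had values above WT in FoxO1 +/- for all 12, with 7 of 12 past an unadjusted limma p of 0.05 on the high side, against 3.43% of all genes, and 0 past an adjusted one. Their mean deviation was 0.03, -0.99 and -0.25 in WT and 0.21, 0.36 and 0.64 in FoxO1 +/-. They were thus low with the muscle genes on WT 2 and highest on FoxO1 +/- 3, where the muscle genes were lowest. Hair follicle genes were at 2.87 on WT 1 and between -1.06 and -0.03 on the other arrays. The part of these lists in the muscle values was not tested.

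**Figure D4:**
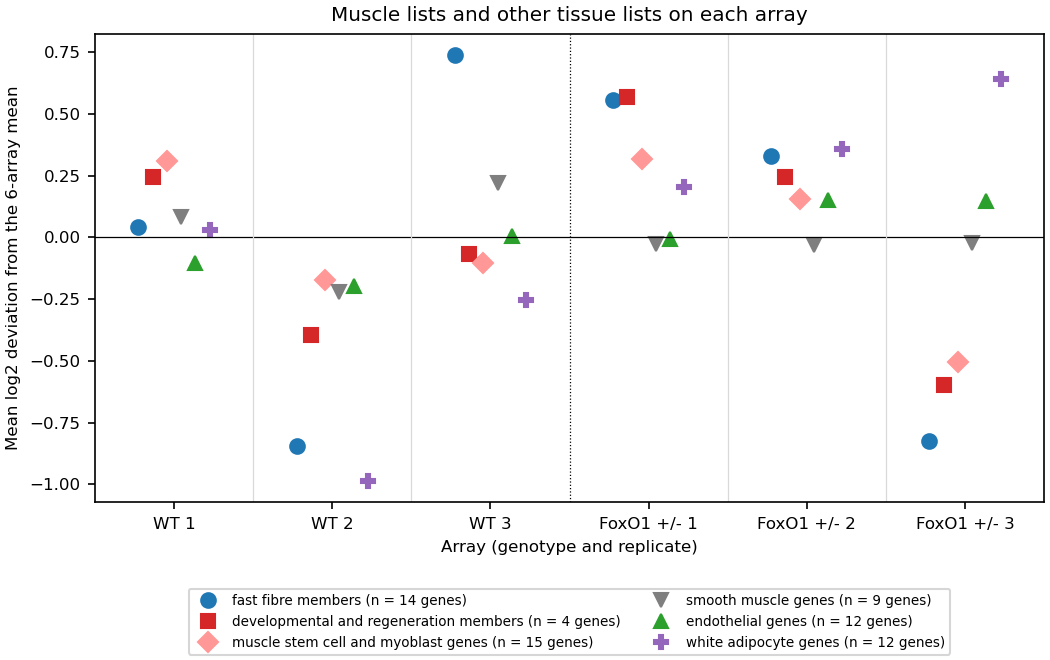
Points are the mean log2 deviation, on each of the 6 arrays, of the genes of 6 lists: fast fibre members, development and regeneration members, satellite cell and myoblast genes, and smooth muscle, endothelial and white adipocyte genes. On WT 3 the fast members are at 0.74 and the development and regeneration members at -0.07, and on FoxO1 +/- 3 the fast members are at -0.82 and the white adipocyte genes at 0.64.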

How the data were processed

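RNA of 3 WT and 3 FoxO1 +/- samples of day 3 wound tissue was measured on 1-colour Agilent arrays of 1 slide and 1 scan. Spot intensity in the deposited scanner output is linear and was background-subtracted by Feature Extraction, as version 10.7.1.1 per the file headers and 9.1 per the submitters' processing notes. The authors' value table holds the same signal, linear and not centred, within 0.6%, with column medians of 99.8, 103 and 112 in WT and 97.2, 98.9 and 82.4 in FoxO1 +/-.

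Each deposited intensity was converted to log2 and averaged over the spots of a probe without outlier-flagged spots, and scaled by subtracting the 75th percentile of that array's non-control probes. Of 55645 probes with values on all arrays, 37902 were well above background on every array of a genotype, and 21456 of these had a symbol. The brightest probe stood for a gene. No spot was saturated. Symbols came from RefSeq accessions in a GRCm38.p6 table. No gene coordinates were taken across builds.

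The genotypes were compared with limma 3.58.1 in R 4.3.3 (lmFit and eBayes, two-sided, all 6 arrays, no covariate), with Benjamini-Hochberg adjustment over 16407 genes. The fit was also run on simulated data with independent noise for each gene. The members moved together across arrays, so that run does not speak to them as a set. With 3 arrays a side, exact permutation reaches no two-sided p below 0.1, and tests of single genes are therefore limma's. The number of arrays limits the precision. Alternatives were normexp (offset 50), quantile normalization, no filter on dim probes, the mean of a gene's probes, the authors' value table, slide row as a block, the title numbers as a block, and leaving out each array. The files lack a mean foreground signal, so normexp used the median signal.

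Members and lists were chosen with earlier results of these data known. The genes named are the 12 markers Myh1, Myh2, Myh4, Myh7, Myh3, Myh8, Acta1, Ckm, Tnnt3, Tnnt1, Myod1 and Myog, the 6 members with the smallest unadjusted p, further muscle genes with an unadjusted p under 0.05, and the 10 genes most like the members' mean. Other members are given with levels or differences. Of the cell type lists, those for keratinocytes, brown adipocytes and macrophages are given in the closing section.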

Additional observations from a re-analysis of the deposited data

How the results depend on the processing

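No muscle gene passed an adjusted p of 0.05 in limma under any alternative run, and the lowest adjusted p of a named member over them was 0.567. The count of all genes called, 1, became 0 with normexp, 2 with quantile normalization, 3 with no filter on dim probes, 7 with slide row as a block, 4 within slide row 1, and 0 to 28 when 1 array was left out, with 28 without WT 2. Same-numbered arrays did not deviate together (correlations -0.07, -0.14 and -0.30). Deviations from the mean of 3 arrays must sum to 0, so these values cannot show whether the samples were paired. The replicate block called 0 genes and left the members' differences as they were. Quantile normalization turned Tnnt3 to -0.058. With slide row as a block, which here equals row 1 alone, Myh1 turned to 0.22, Acta1 to 0.27, Tnnt1 to 0.43, Neb to 0.0024 and Mb to 0.30, and the median of the development and regeneration genes moved to 0.63. Leaving out 1 array gave -2.34 to 0.19 for Myh7, -0.53 to 0.18 for Acta1, -0.24 to 0.64 for Ckm, -0.27 to 0.68 for Myh3, -0.13 to 0.66 for Myh8, -0.032 to 0.40 for Myod1, -0.075 to 0.29 for Myog, -0.029 to 0.95 for Myoz1, -0.42 to 0.29 for Tnnt1 and -0.30 to 0.47 for Tnnt3. Myh2, at -1.42 to -0.21, and Myh4, at 0.29 to 1.30, kept their direction in every alternative run but not their size. Mb, at -1.004 to -0.043, Neb, at -0.85 to -0.11, and Myh1, at -0.85 to -0.021, kept it when 1 array was left out. The fast minus slow difference of 0.42 was 0.072 without Myh7, an alternative added after its values were seen. Without Myh7 the measure was 0.53 on WT 3, against -0.15 on WT 1 and -0.49 on WT 2, so the smaller difference rested on WT 3. The cause of the shifts under the alternatives was not tested. Every member gave a signal well above background on each array, and each comparison has 3 arrays per genotype.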

Other observations

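Trim63, a muscle ubiquitin ligase that FoxO factors are known to induce in wasting muscle, was singled out after its values were seen. It was at 1.89, 1.77 and 2.28 in WT and at 2.17, 2.30 and 1.20 in FoxO1 +/-, a difference of -0.09 (SE 0.32, limma adjusted p = 0.995). The genotypes overlapped, and FoxO1 +/- 3 was lowest, as for 15 of the 38 members, while 20 were lowest on WT 2.

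The 2 genes on WT 3 that stood with the slow muscle genes in the search for values at least 2 log2 units above every other array were Slc6a3, the dopamine transporter, and Foxr1, a forkhead gene. Slc6a3 was at -1.51 on WT 3 and between -4.86 and -4.50 elsewhere, and Foxr1 at -2.05 against -5.42 to -4.85. The same search found 35 genes on WT 1, 2 on WT 2, 0 on FoxO1 +/- 1, 6 on FoxO1 +/- 2 and 8 on FoxO1 +/- 3. Myh7 was the 1 member among the 6 genes of WT 3.

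Myl4 and Sln, which embryonic and regenerating skeletal muscle also expresses, were also measured with the heart list. Myl4 was at 5.91, 5.30 and 5.14 in WT and at 6.02, 5.71 and 4.68 in FoxO1 +/-, high on WT 1 and FoxO1 +/- 1. Sln was at 4.23, 4.29 and 4.39 in WT and at 4.89, 4.49 and 2.75 in FoxO1 +/-, with FoxO1 +/- 3 alone far below the rest. Nppa was the 1 of 8 heart genes whose genotypes separated, at -0.09 (SE 0.07), a share near the 11.5% of all genes.

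Of the lists of other cells, keratinocyte genes had a median difference of -0.02 over 11 genes and macrophage genes 0.14 over 11. Of 9 brown adipocyte genes, Cidea at -1.03 (SE 0.35, limma adjusted p = 0.723) and Elovl3 at -1.41 (SE 0.27, limma adjusted p = 0.384) had an unadjusted p under 0.05, against 2.83% of all genes lower at that level, while the median was 0.08. The list held 5 values above 0 and 4 below. Ucp1, the defining gene of brown fat, did not pass the filter on dim probes. Whether the Cidea and Elovl3 signal came from brown adipocytes or from other cells of the skin was not tested.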
